A study of Mus musculus with 6 samples.

Results

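DNA methylation was examined along 21 long, continuously tiled stretches of the mouse promoter array, of 25035 tiled regions in all. Promoter probes were joined into a region as long as the start of each lay within 500 bp of the one before it, in mm9 coordinates. The long regions were the autosomal runs with 20 or more probes. Of the 27 such runs on all chromosomes, 3 on the sex chromosomes and 3 in left-out windows were not used. The 21 regions held 945 probes, or 0.541% of all promoter probes, and 944 were used because 1 was marked as an outlier. The rule used chromosome, position and number of probes and no signal, but it was set with earlier results of these data known.

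The DNA came from adipose tissue of female C57BL/6J offspring aged 32 weeks. LC mice were born to dams fed a low chromium diet through gestation and lactation, and CC mice to dams fed the control diet. Both groups ate the control diet after weaning. Each group had 3 mice, with 1 array per mouse and no pooling, and the fat depot is not named. The array measured DNA and the files name no genes, so the tissue could not be checked against marker genes.

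In methylated DNA immunoprecipitation (MeDIP), an antibody against 5-methylcytosine pulls methylated fragments out of sonicated genomic DNA. Each array compared MeDIP DNA (Cy5) with the unenriched DNA of that mouse, called input (Cy3), so a higher log2(MeDIP/input) stands for more methylated DNA around a probe. The antibody also recovers more DNA where CpG sites are dense, so a level is not a percentage of methylated cytosines. CpG islands at active promoters are usually unmethylated, while the DNA between them is mostly methylated. Promoter methylation often goes with a silent gene. The array tiles a window around each annotated transcription start site. A run longer than 1 window can arise where windows overlap or lie side by side. The files name no start sites, so how the long runs arose was not checked. A long run shows how methylation changes over several kilobases, which the usual short promoter tile cannot show.

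Signals were centered on the median of each array, so 0 is the median promoter probe. All levels below are log2(MeDIP/input) on that scale, and group values are means ± SD over 3 mice. The limma p-values combine the spread between these mice with a prior variance shared over all regions, most of them short. For a long region they therefore do not measure that spread alone, and the number of mice limits the precision. In the input channel the median signal above local background was 105.5 to 169 intensity units for LC mice and 240 to 334 for CC mice. The LC arrays all lay at position 1 of a slide and the CC arrays all at position 3, so diet and slide position cannot be told apart. The SD of log2(MeDIP/input) over all probes was 1.42 to 1.46 for LC mice and 1.51 to 1.55 for CC mice. LC replicate 1 was the array with the dimmest input channel. It lay outside the range of the other LC arrays in 20 of the 21 long regions, and farther from the CC mean than both in 18. The lowest and the highest of 3 values always lie outside the range of the others, so such a count is high for any array. No share over all regions was counted, and the part of the dim input was not tested.

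The long regions lay on 8 chromosomes and ranged from 4045 to 40459 bp, with a median of 5537 bp and 25 probes. The other autosomal regions with at least 3 probes numbered 21384 and had medians of 1617 bp and 8 probes. Probe spacing was alike, with a median start distance of 208 bp in the long regions and 209 bp in the others. Probes of 45 bases, the shortest on the array, made up 53.9% and 50.8%, and probes of 60 bases, the longest, 8.57% and 12.7%. Several long regions were neighbors. When runs less than 20 kb apart were joined, a distance set after the positions were seen, the 21 regions fell into 13 loci and 13 of the regions lay in 5 loci with more than 1 region.

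The largest group lay on chromosome 2 from 174100927 to 174176708, where 4 regions of 61, 43, 69 and 129 probes followed each other. Chromosome 7 held a 30-probe and a 182-probe region from 149758752 to 149806238, and the 182-probe region, starting at 149765780, was the longest of all. Chromosome 3 held regions of 25, 22 and 49 probes from 96020633 to 96053751. Chromosome 11 held regions of 35 and 59 probes from 103561561 to 103584771, and chromosome 15 held regions of 20 and 22 probes from 76028155 to 76040743. The other 8 regions stood alone. These were a 23-probe region of chromosome 11 (97560211 to 97565133), a 23-probe region of chromosome 14 (70603945 to 70608591), a 22-probe region (45728844 to 45733976) and a 25-probe region (71198643 to 71204069) of chromosome 17, and a 43-probe region (18598633 to 18608594) and a 23-probe region (25142380 to 25147061) of chromosome 2. The last were a 20-probe region of chromosome 7 (148030179 to 148034255) and a 20-probe region of chromosome 8 (87603572 to 87607616). Each is named below by its chromosome and its number of probes.

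The mean level of a long region in CC mice ran from -0.80 in the 25-probe region of chromosome 3 to 0.70 in the 23-probe region of chromosome 14. Of the 21 regions, 8 lay above 0 and 13 below. Compared with the CC levels of the other tested regions, 3 lay above the 75th percentile and 3 below the 25th. The median over the long regions was lower than that over the other autosomal regions on all 6 arrays, by 0.011 to 0.13 (mean difference long minus other -0.054). Neither the order nor the size was firm. The mean difference was -0.0043 when each region was summarized by the median of its probes, -0.012 in the authors' values and -0.23 when only probes of 45 bases were used. Just inside the limit, 9 regions with 20 to 23 probes had a median CC level of 0.18 (-0.61 to 0.70). Just outside it, 47 regions with 17 to 19 probes had a median of -0.082 (-1.29 to 0.81).

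**Figure D1:**
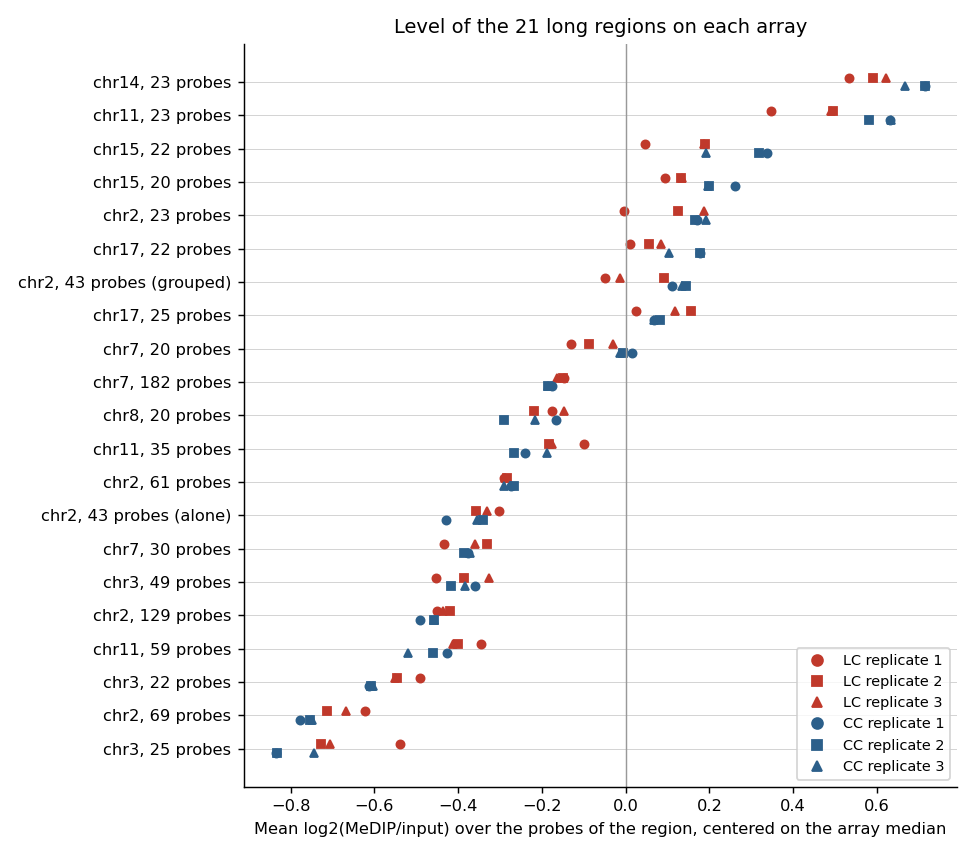
Mean log2(MeDIP/input) over the probes of each long region (x axis, centered on the array median), with 1 point per mouse and the regions ordered by their CC mean (y axis). The regions run from -0.80 to 0.70 in CC mice, and the LC points lie mostly left of the CC points at the top and right of them at the bottom. The CC values set the order and enter the comparison, so this pattern is partly built in.

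The 3 most enriched long regions were short ones that stood alone or in a pair. In the 23-probe region of chromosome 14, CC mice had 0.71, 0.71 and 0.67 and LC mice 0.53, 0.59 and 0.62. In the 23-probe region of chromosome 11, CC mice had 0.63, 0.58 and 0.63 and LC mice 0.35, 0.49 and 0.49. In the 22-probe region of chromosome 15, CC mice had 0.34, 0.32 and 0.19 and LC mice 0.045, 0.19 and 0.19. All LC values of these regions lay below all CC values. The gap in the 22-probe region of chromosome 15 was small, since CC replicate 3 was at 0.192 and LC replicate 2 at 0.190.

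The 3 most depleted regions lay in the groups of chromosomes 3 and 2. In the 25-probe region of chromosome 3, CC mice had -0.83, -0.83 and -0.74 and LC mice -0.54, -0.73 and -0.71. In its neighbor of 22 probes, CC mice had -0.61, -0.61 and -0.60 and LC mice -0.49, -0.55 and -0.55. In the 69-probe region of chromosome 2, CC mice had -0.78, -0.75 and -0.75 and LC mice -0.62, -0.71 and -0.67. Here all LC values lay above all CC values. In the 25-probe region of chromosome 3, 13 of 25 probes stayed at background in the MeDIP channel in both groups (not well above it on any array), so the level there is an upper bound for those probes. Over all long regions such probes numbered 178 in LC and 186 in CC.

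Levels followed the probe length closely. In CC mice the median of the long-region probes fell from 0.37 at 45 bases, over -0.15 at 46 to 52 bases and -1.25 at 53 to 59 bases, to -1.52 at 60 bases. The other autosomal probes ran from 0.52 to -1.28 over the same classes. Long regions with a CC level above 0 had 67.4% to 95% of 45-base probes, and those below 0 had 20.9% to 80%. The part of probe length in the level of a region was not tested.

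Position within a region was also compared. The first 5 and last 5 probes of a long region were higher than the inner probes by 0.095 (median over the regions, averaged over the 6 arrays), with 0.050 on the lowest array and 0.13 on the highest. Single regions went both ways. The outer probes were higher on all 6 arrays in 10 regions, lower on all 6 in 6 and mixed in 5. The outer probes of the grouped 43-probe region of chromosome 2 exceeded the inner ones by 0.60 in CC, and those of the 22-probe region of chromosome 3 lay 1.02 below them (outer minus inner -1.02). Among 45-base probes alone the median difference was reversed (-0.13), and after loess normalization it was 0.0038. No common edge pattern of the long regions held across these settings.

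The level changed along each long region. The mean of 5 adjacent probes, run along each region in CC mice, covered between 1.24 and 4.71 log2 units, with a median of 2.11. Means of 5 probes vary more than means over a whole region, so these ranges are not comparable with the spread of the regional means. A region with more probes also offers more such means, so its range tends to be wider. The same shape appeared in every mouse. The correlation between any pair of arrays over the probes of a region was 0.79 to 0.997 (median 0.98 over regions). These correlations are over the probes of 1 array design and include differences between probes that all arrays share. Neighboring probes were much less alike, with correlations of -0.37 to 0.34 (median 0.035).

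The widest profile was that of the 182-probe region of chromosome 7. Its regional mean was -0.15 ± 0.0086 in LC and -0.18 ± 0.0060 in CC, while the 5-probe running mean in CC went from 1.25 down to -3.45. The 5-probe means passed above and below 0 repeatedly along the region. Neighboring probes correlated at only 0.34 here, and means of weakly related probes swing as well. Whether the swings mark separate stretches of methylation was not tested. The lowest point was a run of 5 probes from 149803993 to 149804956, which began 38.2 kb from the start of the region. LC mice had -3.25, -3.13 and -3.21 there and CC mice -3.46, -3.40 and -3.50. LC mice were the higher ones on all arrays of a run in which 2 of 5 MeDIP probes were at background in both groups, so the level is an upper bound.

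**Figure D2:**
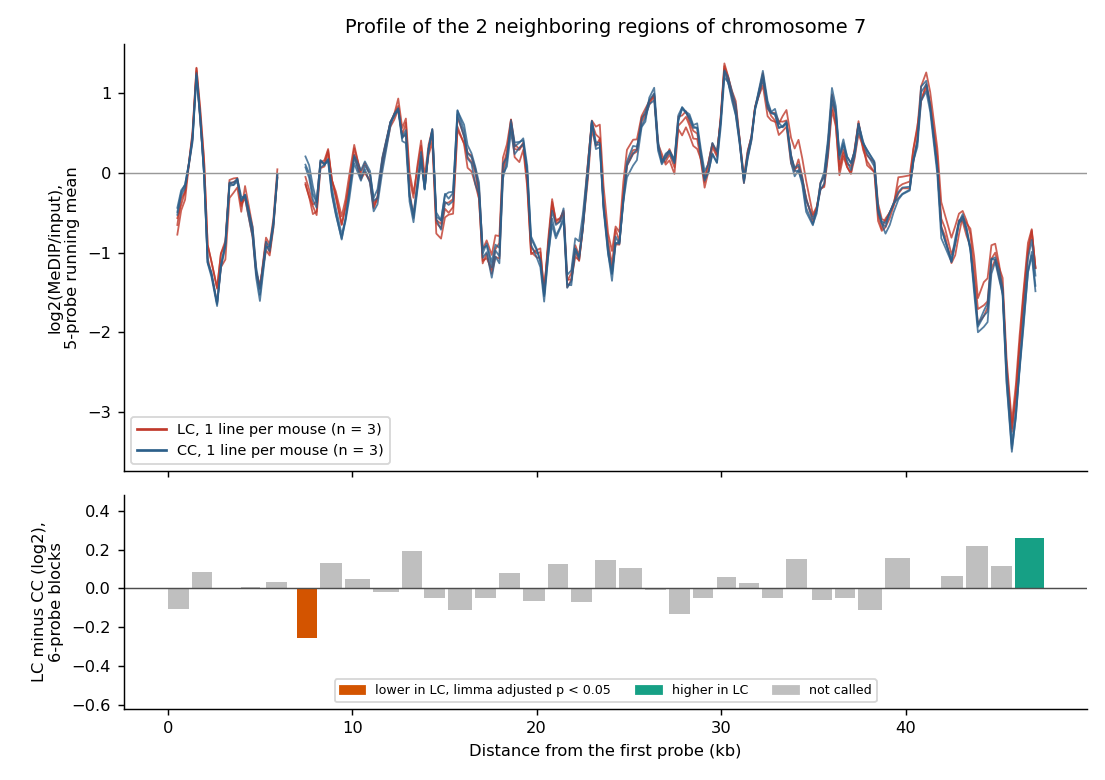
The upper panel shows the 5-probe running mean of log2(MeDIP/input) against the distance in kb from the first probe of the 2 neighboring regions of chromosome 7, with 1 line per mouse, and the lower panel shows LC minus CC in blocks of 6 probes. The lines of both groups follow each other down to -3.45 in CC, and the called blocks are the first (-0.26) and the last (0.26) of the 182-probe region.

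The 4 neighboring regions of chromosome 2 together spanned 75782 bp and held 302 probes. Their CC levels were -0.28 (61 probes), 0.13 (43 probes), -0.76 (69 probes) and -0.47 (129 probes). The 129-probe region had the second widest profile, from 1.18 to -2.76 in CC. Its deepest run was 8 probes from 174172867 to 174174355, the longest depleted run found. LC mice had -2.67, -2.63 and -2.46 there and CC mice -2.55, -2.44 and -2.61, so the groups overlapped. None of these 8 probes was at background in either channel, and 5 of them were 45 bases long. Before it lay an enriched run of 4 probes from 174166242 to 174166926, at 1.14 ± 0.056 in LC and 1.06 ± 0.031 in CC. An enriched run of 6 probes in the neighboring 43-probe region, from 174122646 to 174123806, was at 1.09 ± 0.11 in LC and 1.23 ± 0.068 in CC. The 61-probe region held a depleted run of 4 probes at -2.18 ± 0.053 in LC and -2.32 ± 0.13 in CC and, after it, an enriched run of 5 probes at 1.03 ± 0.024 in LC and 1.23 ± 0.025 in CC.

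**Figure D3:**
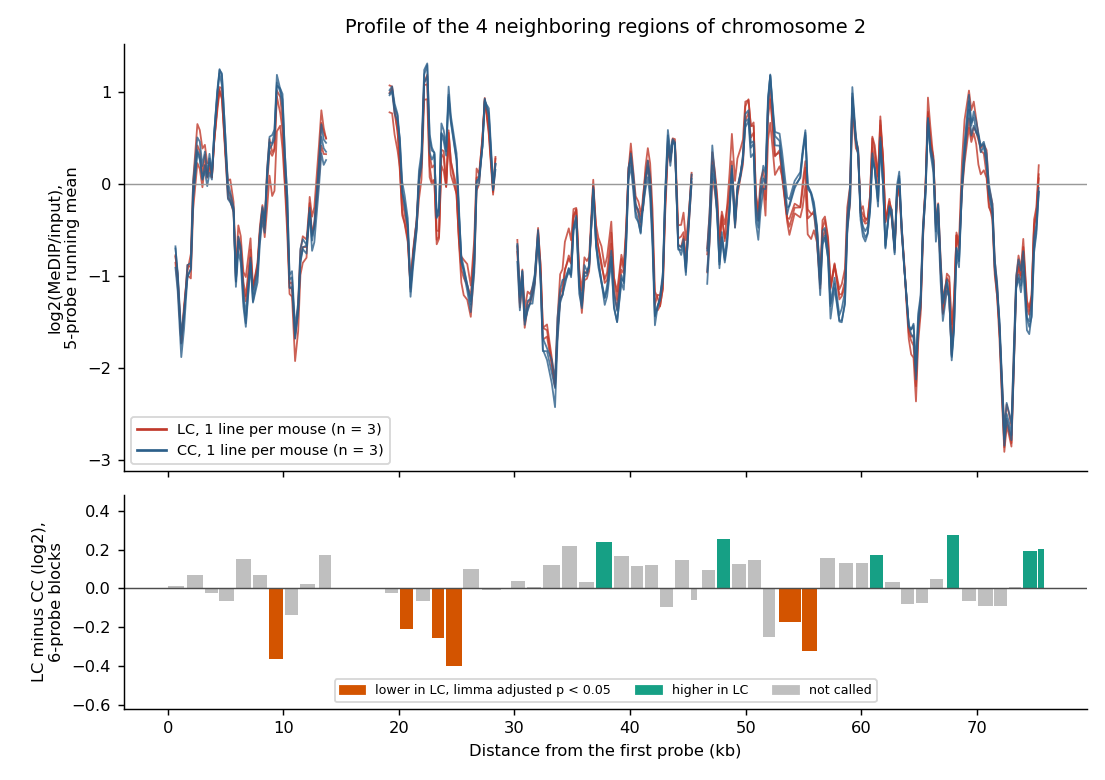
The upper panel shows the 5-probe running mean of log2(MeDIP/input) along the 4 neighboring regions of chromosome 2, with 1 line per mouse and gaps where no probes lie, and the lower panel shows LC minus CC in blocks of 6 probes. The deepest point lies in the 129-probe region at -2.76 in CC, and called blocks occur in both directions, from -0.40 to 0.28.

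The third widest profile, over 3.11 log2 units, was that of the 49-probe region of chromosome 3. It held a depleted run of 4 probes from 96047092 to 96047752, at -1.72 ± 0.19 in LC and -1.94 ± 0.10 in CC. In all, 9 depleted runs with 42 probes lay in 6 of the long regions and 4 enriched runs with 20 probes lay in 4. A run was at least 4 adjacent probes below -0.5, or above 0.5, on all 6 arrays. These limits were chosen after the data were seen. Runs were not counted in the other regions, and whether unrelated probes would give as many was not tested. Single probes below -0.5 on all 6 arrays made up 17.3% at 45 bases and 56.8% at 60 (15.7% and 53.6% in the other autosomal regions). Those above 0.5 made up 32.3% and 9.88% (37% and 8.54%). Of the 9 depleted runs, 5 lay in the chromosome 2 group. In 7 the level was higher in LC than in CC, and each of these had probes at background in the MeDIP channel. The 2 without such probes, from 174164614 and from 174172867 on chromosome 2, had LC minus CC values of -0.031 and -0.053. Of the 42 depleted probes, 17 were at background in that channel in each group. Of the 4 enriched runs, 3 had a lower level in LC, and none of their probes was at background.

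The main question was whether the long regions differed between LC and CC mice. With limma over all 22569 regions with at least 3 probes, 0 of the 21 long regions were called lower and 0 were called higher in LC (adjusted p under 0.05). Of all regions tested, 8.86% were called lower and 10.2% higher. Before adjustment (p under 0.05), limma had 4 long regions lower (17.2% of all regions) and 1 higher (21.5%), and the methods' t-test had 5 (13.7%) and 3 (15.3%). After adjustment the t-test called 0% of all regions in either direction. The LC minus CC differences ran from -0.17 to 0.15 with a median of 0.0037, against a median of 0.015 over all regions tested. Their median size was 0.079 in the long regions and 0.099 in the other autosomal regions. Among the latter, those with 10 to 19 probes had 0.073, slightly less than the long regions. The median level over the long regions was higher in LC by 0.045, and by 0.028, 0.083 and 0.025 between the arrays scanned on the same day. It was 0.031 lower in LC when regions were summarized by the median of their probes (LC minus CC -0.031).

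The mice separated in more regions than the test called. All 3 LC values lay below all 3 CC values in 7 long regions (background 20.5%) and above them in 7 (background 24.1%), and the groups overlapped in 7. The difference had 1 sign in all 3 scan days in 15 regions, of which 8 were lower and 7 higher in LC. The 14 regions without overlap have this by necessity, so the count mostly repeats the one before it. No share over all regions is given for it. Averaging over more probes narrowed the spread between mice. The median residual SD was 0.085 in regions with 3 to 5 probes, 0.064 with 6 to 9, 0.052 with 10 to 19 and 0.040 in the long regions. The fit shares 1 prior variance over all regions, whatever their number of probes. When that prior followed the number of probes, limma called 5 long regions lower (background 9.81%) and 2 higher (background 11%). The lower ones were the 23-probe regions of chromosomes 11 and 14, the 20-probe region of chromosome 15, the 22-probe region of chromosome 17 and the grouped 43-probe region of chromosome 2. The higher ones were the 69-probe region of chromosome 2 and the 25-probe region of chromosome 3. With the scan day as a block, limma called 0% of all 22569 regions in either direction, so no long region could be called. Before adjustment it had 2 long regions lower (16.5% of all regions) and 0 higher (20%).

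The largest decrease was in the 23-probe region of chromosome 11, at 0.44 ± 0.084 in LC and 0.62 ± 0.031 in CC. LC minus CC was -0.17 ± 0.054 (standard error; limma adjusted p = 0.0504). It was -0.29, -0.086 and -0.14 on the 3 scan days, so replicate 1 gave the largest part. The largest increase was in the 25-probe region of chromosome 3, at -0.66 ± 0.10 in LC and -0.80 ± 0.052 in CC. LC minus CC was 0.15 ± 0.060 (standard error; limma adjusted p = 0.104), and here too replicate 1 gave the most, with 0.29 against 0.11 and 0.038. With 13 of its 25 probes at background in the MeDIP channel, this increase was not firm in size. It was 0.035 when probes with a dim input signal were left out, 0.021 after loess and 0.012 in the authors' values. The 22-probe region of chromosome 15 differed by -0.14 (limma adjusted p = 0.111) and the 23-probe region of chromosome 14 by -0.12 (limma adjusted p = 0.0978).

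The regions with the most probes differed less. The 182-probe region of chromosome 7 differed by 0.029 (standard error 0.043, limma adjusted p = 0.637). Even so, its 3 LC values, -0.15, -0.15 and -0.16, all lay above its CC values, -0.18, -0.19 and -0.19. With the prior following the number of probes, its standard error was 0.015 (limma adjusted p = 0.16). The 129-probe region of chromosome 2 differed by 0.033, with -0.45, -0.42 and -0.44 in LC and -0.49, -0.46 and -0.46 in CC (limma adjusted p = 0.595). The 61-probe region of chromosome 2 was at -0.29, -0.28 and -0.29 in LC and -0.27, -0.27 and -0.29 in CC, and these ranges overlapped. The 59-probe region of chromosome 11 was higher in LC by 0.084, with -0.35, -0.40 and -0.41 against -0.43, -0.46 and -0.52 (limma adjusted p = 0.22). In the 49-probe region of chromosome 3, LC mice had -0.45, -0.39 and -0.33 and CC mice -0.36, -0.42 and -0.38, and the groups overlapped.

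The direction of the difference was set beside the level. Of the 8 long regions with a CC level above 0, 7 had a lower LC mean, and of the 13 below 0, 10 had a higher LC mean. The CC values enter both the level and the difference, which by itself moves such counts this way, so they are a description. On the same arrays the SD over the probes of the long regions was 1.35 to 1.38 in LC and 1.42 to 1.45 in CC. Among 45-base probes of the long regions the median LC minus CC was -0.060, and it was 0.075 at 46 to 52 bases, 0.21 at 53 to 59 and 0.29 at 60. The other autosomal probes had -0.098, 0.12, 0.20 and 0.27 in the same classes. With the same spread set on every array, 12 of the 21 long regions had a negative difference, against 10 without.

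The channels were then compared one at a time, each centered on its own median. In the MeDIP channel, which carries the antibody-enriched DNA, no difference was detected. Limma called 0 long regions lower (background 0.0133%) and 0 higher (background 0%). Before adjustment there were also 0 and 0, against 6.67% and 2.63% of all regions. The differences in log2 MeDIP signal ran from -0.030 to 0.014. In the input channel, which carries unenriched DNA, limma had 1 long region lower (15.2% of all) and 7 higher (23.1%) before adjustment. After adjustment it called 0 lower (background 7.32%) and 4 higher in LC (background 13.1%). These were the 23-probe regions of chromosome 11 (0.18) and chromosome 14 (0.16), the 22-probe region of chromosome 15 (0.19) and the grouped 43-probe region of chromosome 2 (0.16). The calls fell to 0 without LC replicate 1, CC replicate 1, CC replicate 2 or CC replicate 3, and to 2 without LC replicate 3 (background 10.1%). In the settings with 0 calls, 7.63%, 4.38%, 7.04% and 0% of all regions were called higher. Before adjustment, limma had 4 to 7 long regions higher in these settings, against 17.5% to 20.6% of all regions.

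**Figure D4:**
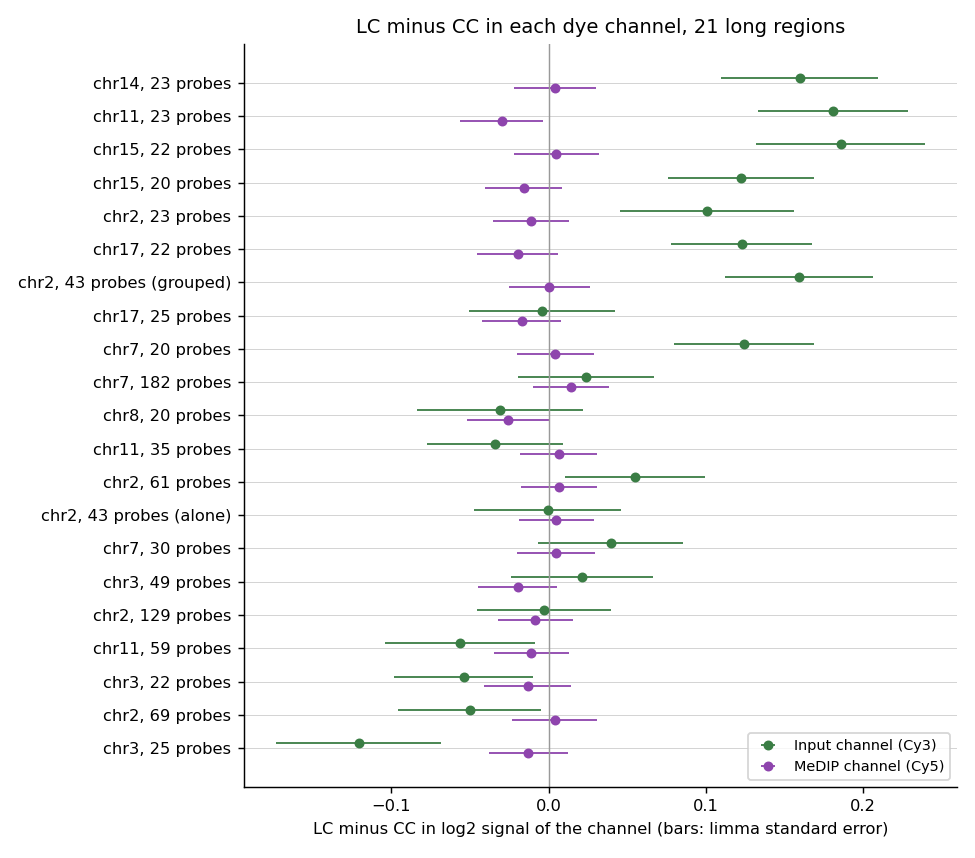
LC minus CC in log2 signal (x axis) for the input channel and the MeDIP channel of each long region, with the regions ordered by their CC level (y axis) and bars for the standard error from limma. The MeDIP differences stay between -0.030 and 0.014, while the input differences reach from -0.12 to 0.19 and are highest in the most enriched regions. The CC input enters both the order and the input difference with a minus sign, so this pattern is partly built in.

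The input difference was larger in size than the MeDIP difference in 18 of 21 long regions and of opposite sign to the ratio in 19. Since input enters the ratio with a minus sign, opposite signs are partly built in. In the 23-probe region of chromosome 11 the ratio differed by -0.17, the input by 0.18 ± 0.048 (standard error) and the MeDIP signal by -0.030 ± 0.026. In the 25-probe region of chromosome 3 the ratio differed by 0.15, the input by -0.12 ± 0.053 and the MeDIP signal by -0.013 ± 0.025. Over all regions tested, the input difference was the larger one in 18964 of 22569. The larger channel difference was thus mostly that of the input, in the long regions much as over the whole array. Because the ratio and each channel were centered separately, the channel differences do not add up to that of the ratio. The shift is the same in every region, and a small difference in the ratio can take its sign from it. In the 182-probe region of chromosome 7 the ratio differed by 0.029, the input by 0.024 and the MeDIP signal by 0.014. Input brightness differed between the groups, and its part in the result was not tested.

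Each long region was then divided into blocks of 6 adjacent probes, so that all tested units had about the same number of probes. Of 158 blocks, limma called 11 lower in LC (6.96%; background 9.22% of 27927 blocks) and 12 higher (7.59%; background 8.97%). After normexp background correction these counts were 4 (background 7.67%) and 48 (23%), and in the authors' values 6 (9.37%) and 16 (7.6%). The 23 called blocks lay in 12 of the 21 regions, and 3 regions held calls in both directions. These were the 129-probe region of chromosome 2 with 2 lower and 5 higher, the 182-probe region of chromosome 7 with 1 and 1, and the 49-probe region of chromosome 3 with 1 and 1. A mean over such a region combines differences of opposite sign. All 23 blocks had the same sign on the 3 scan days. They were called on these same arrays, which by itself favors 1 sign, so this count is a description. With the scan day as a block, 8 of the 23 were still called. Without CC replicate 1 or CC replicate 3, limma called 0% of all 27927 blocks in either direction. Before adjustment, 16 (13.6% of all blocks) and 18 (13.9%) blocks of the long regions were lower and 22 (13.4%) and 23 (16.5%) higher. Without CC replicate 2 limma called 1 block lower (background 1.09%) and 0 higher (0.591%), with 14 (13.9%) and 19 (17%) before adjustment.

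The largest difference was in the grouped 43-probe region of chromosome 2, where 3 of 7 blocks were lower and none was higher. In block 5, from 174124997 to 174126355, LC mice had 0.013, 0.19 and 0.10 and CC mice 0.54, 0.48 and 0.49. LC minus CC was -0.40 ± 0.058 (standard error; limma adjusted p = 0.0142), with 0.37 in the input and -0.070 in the MeDIP channel. This block was also called with the scan day as a block, after the trend on probe length was removed and when all arrays were given equal spread. The block before it, from 174123762 to 174124834, differed by -0.25, with -0.27, -0.15 and -0.29 in LC and 0.037, 0.039 and -0.024 in CC.

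In the 129-probe region, the blocks from 174153841 to 174155677 (-0.17) and from 174155836 to 174157119 (-0.32) were lower. In the latter, LC mice had -0.49, -0.30 and -0.24 and CC mice -0.013, -0.039 and -0.018. This was the called block with the largest difference in the MeDIP channel (-0.20), and the only 1 besides the block from 174176254 to 174176708 in which that difference was larger than the one in the input channel (0.16). That other block, at the end of the region, was higher in LC by 0.20, with 0.083 in the MeDIP and -0.080 in the input channel. The block from 174168308 to 174169416 was higher in LC by 0.28, at -1.67 ± 0.088 in LC and -1.94 ± 0.014 in CC, with 4 probes at background in the MeDIP channel.

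At the ends of the 182-probe region of chromosome 7, the first block (149765780 to 149766850) was at -0.30 ± 0.048 in LC and -0.043 ± 0.056 in CC, a difference of -0.26 (limma adjusted p = 0.0204). The last (149804702 to 149806238) was at -1.71 ± 0.016 in LC and -1.97 ± 0.050 in CC, a difference of 0.26 (limma adjusted p = 0.0184). No other block of this region passed. On chromosome 3, the first blocks of the 25-probe region (0.40) and of the 22-probe region (0.24) were higher in LC, and the former rested largely on LC replicate 1, at -0.55 against -1.03 and -1.06 in the other LC mice. In the 49-probe region of chromosome 3, the block from 96045010 to 96046794 was higher by 0.27 and that from 96049616 to 96050678 lower by 0.21 (LC minus CC -0.21).

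**Figure D5:**
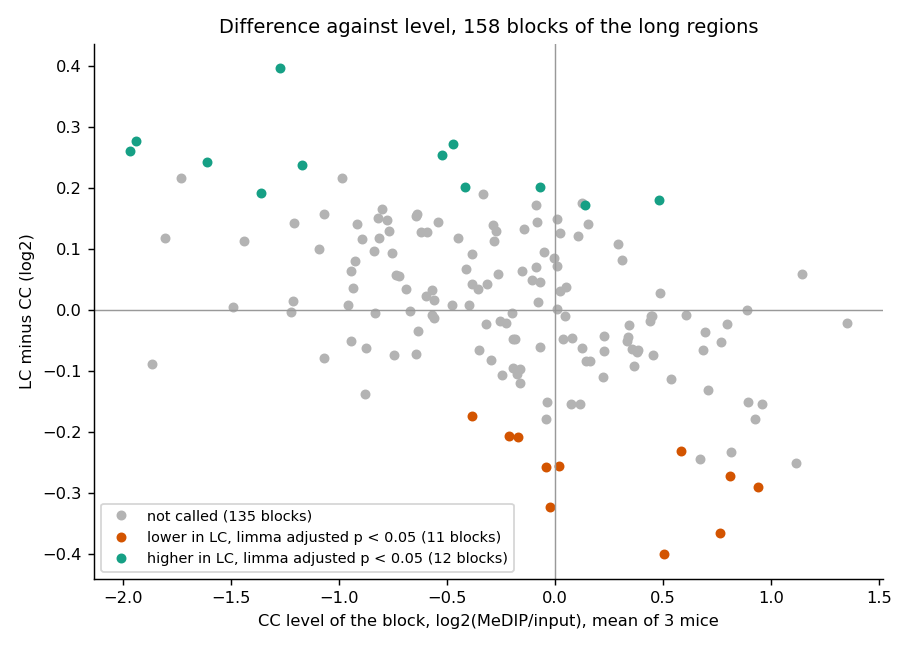
LC minus CC (y axis) against the CC level (x axis), both in log2(MeDIP/input), for the 158 blocks of 6 adjacent probes, with 1 point per block. Called blocks range from -0.40 to 0.40, 10 of the 12 higher ones have a CC level below 0, and 6 of the 11 lower ones have a CC level above 0.

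Of the 58 blocks with a CC level above 0, 42 were lower in LC on average, and of the 100 below 0, 66 were higher, with the CC values again in both measures. The input difference had the opposite sign of the ratio in 23 of 23 called blocks and was larger than the MeDIP difference in 21. Because input enters the ratio with a minus sign and the blocks were picked by that ratio, opposite signs were largely built in. In the input channel alone, limma called 7 of the 158 blocks lower (background 6.8%) and 18 higher (background 13.3%), and 17 of the 23 blocks called in the ratio were among these. In the MeDIP channel alone it called 0 lower (background 0%) and 0 higher (background 0%), with 5 and 6 before adjustment. No share over all blocks was counted for these 5 and 6. With the same spread on every array 6 of the 23 blocks were still called, and with the trend on probe length removed 3 were. All 23 kept their sign in both.

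The study searched for peaks with a Kolmogorov–Smirnov (KS) test, which asks whether the probes in a sliding window rank low or high among all probes. With a window of 750 bp, at least 2 adjacent probes and a score (the -log10 of the p of a window) of at least 2, hypomethylated peaks in LC lay in 2 long regions (background 4.1% of regions) and hypermethylated peaks in 3 (background 2.2%). Since long regions offer more windows, probes were also counted. Hypomethylated peaks held 0.708% of the scored probes of the long regions and 1.86% of all scored probes, and hypermethylated peaks 0.708% and 1.04%. All 6 peaks were 2 probes long. The hypomethylated peaks lay in the grouped 43-probe region (from 174124997, mean LC minus CC -0.53) and in the 129-probe region (from 174153035, -0.42, and from 174155836, -0.56) of chromosome 2. The hypermethylated peaks lay in the 25-probe region of chromosome 3 (from 96021620, 0.40), in the 49-probe region of chromosome 3 (from 96047092, 0.38) and in the 182-probe region of chromosome 7 (from 149804702, 0.38). The peaks from 96047092 and 149804702 lay within depleted runs, where 2 of 4 and 2 of 5 probes were at background in the MeDIP channel in both groups. The 25-probe region had 13 of 25 such probes. More methylated DNA in LC is therefore not established at these peaks. The score compares group means only, so the spread over the 3 mice does not enter it.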

How the data were processed

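Fat DNA of 3 LC and 3 CC mice was hybridized by the authors, with Cy5 for MeDIP and Cy3 for input throughout and no dye swap. They deposited the intensity of each spot and its background from Agilent Feature Extraction 11.0.1.1, and a processed intensity that was background-subtracted, detrended and scaled per dye. The deposited log10 ratio served to check the direction of Cy5 against Cy3. The authors' own log2 values, whose normalization is not given in the sources used here, served as an alternative. Flags of 0 or 1 for spots are other deposited columns. The files give no gene names or probe sequences and use mm9, and the gene tables used here are on another build, so no gene was assigned.

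The log2 of processed Cy5 over processed Cy3 was taken after removal of 5827 control features and 362 outlier probes, and centered on each array's median, with no loess or quantile step. Region means and blocks of 6 probes (a remainder under 3 probes joined the block before it) were tested on the whole array by lmFit and eBayes of limma 3.58.1 under R 4.3.3 (Benjamini-Hochberg adjustment, threshold 0.05), and each channel likewise. The script was tested on simulated data. A probe counted as at background in a group when it was not well above it on any array of that group. KS windows held at least 3 probes, and their length is not given in the sources used here. Python 3.11.15 and scipy 1.17.1 were used.

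The regions and tests were chosen with earlier results of these data known, so no p is given for a median over the 21 regions. The regions named were the 5 with the most probes, the 3 with the highest and the 3 with the lowest CC level and the 3 with the widest running mean, besides called regions (none). Regions called in an alternative or in the input channel, called blocks, runs and peaks were named after their values were seen.

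Replicate numbers are shared by the groups in the labels and coincide with the scan day. Deviations of same-numbered arrays from their group means correlated at -0.156, 0.115 and -0.00027 over regions, so the numbers were not treated as pairs. The alternatives were normexp (offset 50), loess, quantile normalization, the same spread on every array, the authors' values, a probe length correction, probes well above background, the replicate number or the slide as a block, other limma priors, the methods' t-test, the median over probes, other block sizes and outer probes, stricter KS peaks and each array left out.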

Additional observations from a re-analysis of the deposited data

How the results depend on the processing

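The number of arrays and the dim MeDIP signal of depleted probes limit all values, and the cause of a change was not tested. Of 220 differences of the 11 named regions under the alternatives, 207 kept their direction, including settings that change only the test. Sizes moved more. The 23-probe region of chromosome 14 went from -0.12 to -0.0065 after loess and -0.0069 after normexp. The 23-probe region of chromosome 11 went from -0.17 to -0.070 after normexp and -0.078 with the probe length correction. The 69-probe region went from 0.093 to 0.0033 with that correction, and the 25-probe region of chromosome 3 from 0.15 to 0.012 in the authors' values. Others were reversed. In the 61-probe region of chromosome 2 the difference became 0.064 after normexp, 0.0016 after loess and 0.00019 in the authors' values. In the 129-probe region it became -0.011 with the same spread and -0.0081 with the probe length correction, with or without the replicate block. In the 22-probe region of chromosome 3 it became -0.018 with that correction, with or without the block. It went from -0.14 to 0.0098 in the 22-probe region of chromosome 15 and to 0.059 in the 49-probe region of chromosome 3 after normexp. The latter ranged from -0.033 to 0.030 with arrays left out. In the 182-probe region it became -0.0056 with the median over probes, and the median over the long regions became -0.031.

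By limma, 0 long regions passed in either direction. Lower calls were 1 over probes well above background, 1 with trend and robust variance and 5 with the prior following the number of probes. The shares of all regions called lower were 14.5%, 9.34% and 9.81%. Higher calls were 5 after normexp (23.4% of all regions) and 2 with that prior (11%). With arrays left out, lower calls ranged from 0 to 2, with 2 only without LC replicate 2 (10.5% of all regions). The replicate block ended every region call on the array (0% of all regions in either direction), so it could change no call among the long regions.

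Blocks called were 11 lower and 12 higher, and shares of all blocks follow in parentheses. They were 4 and 48 after normexp (7.67% and 23%), 6 and 3 after loess (6.28% and 2.73%), 6 and 2 after quantile normalization (5.03% and 2.07%), 5 and 1 with the same spread (4.65% and 1.36%), and 2 and 1 with the probe length correction (2.84% and 1.15%). The replicate block gave 4 and 4 (4.69% and 2.42%), and 3 and 5 together with that correction (4.8% and 2.07%). With the slide as a block 0 and 0 passed (15 and 16 before adjustment, against 12.3% and 13.6% of all blocks). With the methods' t-test also 0 and 0 passed (13 and 18 before adjustment, against 13.9% and 15.2%). Both called 0% of all blocks. There were, with blocks of 10 probes, 7 lower and 6 higher (8.92% and 10.3%). The authors' values gave 6 and 16 (9.37% and 7.6%), and probes well above background 18 and 12 (14.7% and 10.4%). With arrays left out they ranged from 0 to 13 lower and 0 to 14 higher, with 6 and 8 without LC replicate 1 (6.18% and 4.88%) and 0% of all blocks without CC replicate 1 or CC replicate 3.

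Long minus other regions was -0.012 in the authors' values, -0.0043 with the median over probes, and -0.062 to -0.038 with arrays left out. Outer minus inner probes was 0.029 after normexp, 0.0038 after loess, 0.022 with the first and last 3 probes, -0.13 with 45-base probes, and 0.089 to 0.10 with arrays left out. Input calls higher in LC were 1 after quantile normalization (7% of all regions) and 0 to 3 with arrays left out. KS peaks, hypomethylated and hypermethylated, lay in 0 and 0 regions at a score of 3, 7 and 7 with the authors' values, and 4 and 0 with the probe length correction. With arrays left out they lay in 2 to 4 regions (4 without LC replicate 3 or CC replicate 2) and in 1 to 3 (1 without LC replicate 1 or CC replicate 2). No share over all regions was counted for the KS alternatives, so these counts cannot be set against the rest of the array.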
